A study of Rattus norvegicus with 8 samples.

Results

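Myh6, Myh7, Myl7, Myl4, Actc1, Tnnt2, Tnni3, Nppa, Ryr2 and Ckm are 10 genes of the heart muscle machinery, followed here across single arrays of rat lung. They were chosen on their levels on these same arrays, as seen in an earlier look at them, and a probe was taken for a gene when its RefSeq record belonged to that gene. This gave 11 probes for the 10 genes out of 45598 probes on the array, with 2 probes for Ryr2 and 1 for each other gene. A probe was kept if the 2 arrays of 1 or more groups showed it well above background, which left 8 of the 10 genes, without Nppa and Ryr2. Levels and differences between arrays are given below as descriptions and no test is reported for the 10 genes.

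The study measured lung tissue of male rats on 8 1-colour arrays, 2 in each of 4 groups. Naive rats breathed normal air. Smoke rats had 12 weeks of cigarette smoke. EV rats had the same 12 weeks and then, at week 13, extracellular vesicles (EVs) made from 2500000 human umbilical cord mesenchymal stem cells (MSCs), delivered into the trachea. MSC rats had the smoke and then about 2500000 of the cells themselves by the same route. RNA came from 30 mg of lung, a bulk piece in which fewer muscle cells and less RNA per cell cannot be told apart. Whether replicates came from separate animals is not stated, and a p value then measures only how far these samples spread, possibly for technical reasons. They name neither a vehicle control nor the part of the lung sampled.

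Heart muscle contracts when myosin heavy chains (Myh6, Myh7) with their light chains (Myl7, Myl4) pull on actin (Actc1), under the control of the troponins on the actin filament (Tnnt2, Tnni3). The calcium that frees the filament leaves its store through the ryanodine receptor (Ryr2), creatine kinase (Ckm) buffers the energy supply, and atrial muscle also secretes the peptide hormone that Nppa encodes. Myl7, Myl4 and Nppa are typical of the atria and Myh7 of the ventricles, while in adult rodents Myh6 serves both chambers. In rodents the atrial muscle continues as a sleeve along the pulmonary veins into the lung, so a lung sample can hold heart-type muscle cells.

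All 8 arrays lay on 1 slide with each group in a column of its own, so an effect of the column cannot be told apart from one of the group. Replicate 1 of each group lay in the first row and replicate 2 in the other. The 75th percentile of intensity was 3235 and 2677 on the smoke arrays and 246 to 762 on the other 6. Between 48.1% and 71.3% of probes were well above background on an array. The arrays of a group correlated at 0.950 to 0.972 over all probes with a value on all 8 arrays, dim ones included. The lung labels were borne out by all 9 listed lung epithelial and all 6 listed lung endothelial genes, which were well above background on all 8 arrays. A level is log2 of the processed intensity minus the array's 75th percentile. A probe's level is compared between arrays. Signals of different probes are set together only to name the brightest genes of a list and to sum a list.

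The promoters of 4 of the genes are printed to show what a muscle gene's start region holds in genes bright on the same arrays (Myh6, Tnnt2 and Tnni3) and in one that was not (Ckm). Each is the 250 bases before the RefSeq start site in assembly GRCr8, read 5′ to 3′ along the gene's strand. Capitals mark matches to a GATA site (AGATAA), an M-CAT site (CATTCC) or a TATA box (TATAAA) on either strand.
Myh6, chr15:32411698-32411947, minus strand: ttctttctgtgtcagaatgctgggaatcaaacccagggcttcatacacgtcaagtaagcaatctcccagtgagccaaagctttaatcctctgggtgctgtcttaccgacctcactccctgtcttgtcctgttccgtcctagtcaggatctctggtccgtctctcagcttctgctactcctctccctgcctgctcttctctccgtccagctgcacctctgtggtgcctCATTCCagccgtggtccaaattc
Tnnt2, chr13:49818873-49819122, plus strand: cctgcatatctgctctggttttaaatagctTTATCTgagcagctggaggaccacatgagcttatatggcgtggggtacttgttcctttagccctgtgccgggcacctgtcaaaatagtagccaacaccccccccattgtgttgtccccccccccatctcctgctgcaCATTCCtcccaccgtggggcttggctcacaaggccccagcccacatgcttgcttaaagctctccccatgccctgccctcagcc
Tnni3, chr1:78342321-78342570, plus strand: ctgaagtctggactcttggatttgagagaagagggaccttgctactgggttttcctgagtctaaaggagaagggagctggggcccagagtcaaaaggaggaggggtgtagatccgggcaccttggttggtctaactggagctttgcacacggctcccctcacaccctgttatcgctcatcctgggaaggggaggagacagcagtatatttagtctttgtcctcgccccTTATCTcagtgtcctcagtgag
Ckm, chr1:88189211-88189460, plus strand: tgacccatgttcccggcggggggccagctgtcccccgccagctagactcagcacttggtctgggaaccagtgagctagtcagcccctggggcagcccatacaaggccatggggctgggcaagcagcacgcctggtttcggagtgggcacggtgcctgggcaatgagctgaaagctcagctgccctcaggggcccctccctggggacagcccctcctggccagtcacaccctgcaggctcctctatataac

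The M-CAT match of Myh6 lay 23 to 18 bases before the start and that of Tnnt2 83 to 78 bases before it. The GATA match of Tnnt2 lay 220 to 215 bases before the start and that of Tnni3 22 to 17, both on the opposite strand. Ckm had no capitals, but its window held 3 E-boxes (CANNTG), the last 75 to 70 bases before the start. Over the promoters of all 10 genes, which were all matched, an E-box was present in 8, an M-CAT site in 2, a GATA site in 2 and a TATA box in 2 (Myl4 and Nppa). Over 33465 rat promoters of the same length the shares were 65.5%, 12.1%, 10.3% and 12.9%. A MEF2 site was in 0 of the 10 and in 2.96% of all, and a CArG box in 0 of the 10 and in 1.5% of all. These are matches of letters only, and E-boxes overlap the other motifs in no printed window.

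Of the 10 genes, 7, all but Nppa, Ryr2 and Ckm, were far brighter on EV replicate 1 and MSC replicate 2 than on the other array of the same group. The heavy chain gene Myh6 lay at -7.45 and -3.71 in naive lung, -5.66 and -8.03 after smoke, 3.18 and -4.91 after EVs, and -2.22 and 4.16 after MSCs. The first EV and second MSC array were the brightest of the 8, and the rest did not reach them. EV replicate 1 stood 8.09 log2 above EV replicate 2 (272-fold), and MSC replicate 2 stood 6.38 above MSC replicate 1 (83.2-fold). Myh6 was well above background on 6 arrays, all but naive replicate 1 and smoke replicate 2.

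The ventricular heavy chain gene Myh7 lay at -7.34 and -5.95 in naive lung, -8.85 and -9.03 after smoke, 0.51 and -7.98 after EVs, and -4.90 and 1.17 after MSCs. It was well above background on 3 arrays only, EV replicate 1 and both MSC arrays. On EV replicate 1 it was at least 79.2-fold brighter than on EV replicate 2, and the MSC arrays differed by 6.07 log2 (67.3-fold). Myh6 and Myh7 are close copies that lie near each other in the genome, and probe sequences were not used here, so how much of either signal came from the other is not known.

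The atrial regulatory light chain gene Myl7 lay at -4.72 and -2.57 in naive lung, -5.86 and -5.49 after smoke, 3.10 and -4.30 after EVs, and -1.53 and 4.53 after MSCs. It was detected on all 8 arrays, and its unscaled intensity of 6545 on EV replicate 1 and 5919 on MSC replicate 2 compared with 21.6 to 85.0 on the other 6. The gaps were 7.40 log2 in the EV pair and 6.06 in the MSC pair. Myl4, the atrial essential light chain gene, lay at -3.21 and -2.71 in naive lung, -4.58 and -3.88 after smoke, 0.26 and -3.21 after EVs, and -1.93 and 1.51 after MSCs. Its gaps were smaller than those of Myl7, at 3.47 and 3.44, with the same arrays bright.

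Actc1, which encodes cardiac actin, lay at 0.43 on both naive arrays, 0.054 and 0.21 after smoke, 2.73 and 0.41 after EVs, and 0.73 and 3.77 after MSCs. Outside EV replicate 1 and MSC replicate 2 it varied by less than 1 log2, and those arrays stood 2.32 and 3.03 above their mates. Cardiac actin is nearly identical to the other muscle actins in sequence, so its signal may hold theirs.

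Tnnt2, the cardiac troponin T gene that anchors the troponin complex to the filament, lay at -1.73 and -1.69 in naive lung and -2.62 and -2.65 after smoke. In treated lung it lay at 2.40 and -1.57 after EVs and at -0.69 and 3.90 after MSCs. The naive arrays differed by 0.042 and the smoke arrays by 0.030, against 3.96 in the EV pair and 4.59 in the MSC pair. Tnni3, the inhibitory troponin I of the heart, lay at -1.52 and -1.02 in naive lung, -3.41 and -2.97 after smoke, 1.16 and -0.94 after EVs, and -1.41 and 1.59 after MSCs. The gaps of Tnni3, at 4.28-fold and 8.02-fold, were the smallest of the 7 genes in both pairs.

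Ckm, the muscle creatine kinase gene of heart and skeletal muscle, had another pattern. It lay at -1.19 and -1.07 in naive lung, -4.96 and -4.51 after smoke, -0.64 and -1.26 after EVs, and 0.73 and 0.83 after MSCs. Arrays of a group were close, with gaps of 0.62 in the EV pair and 0.096 in the MSC pair, and both smoke arrays lay below the other 6. Its unscaled intensity was also lowest there, at 104 and 118 on the smoke arrays against 173 to 489 on the others.

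Nppa, the atrial natriuretic peptide gene, was well above background on smoke replicate 1 only. Its levels of -8.26 to -5.64 are therefore near background, and EV replicate 1 (-6.77) and MSC replicate 2 (-5.83) did not stand out. The probes of Ryr2 were each above background on 1 array, 1 probe on smoke replicate 2 and the other on MSC replicate 2. On the percentile scale the latter probe was at least 2.79-fold brighter on MSC replicate 2 than on MSC replicate 1. Its gap was only 0.37 log2 under normexp background correction, so that bound does not hold there. The hormone and the calcium channel genes were thus not well above background on most arrays.

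**Figure D1:**
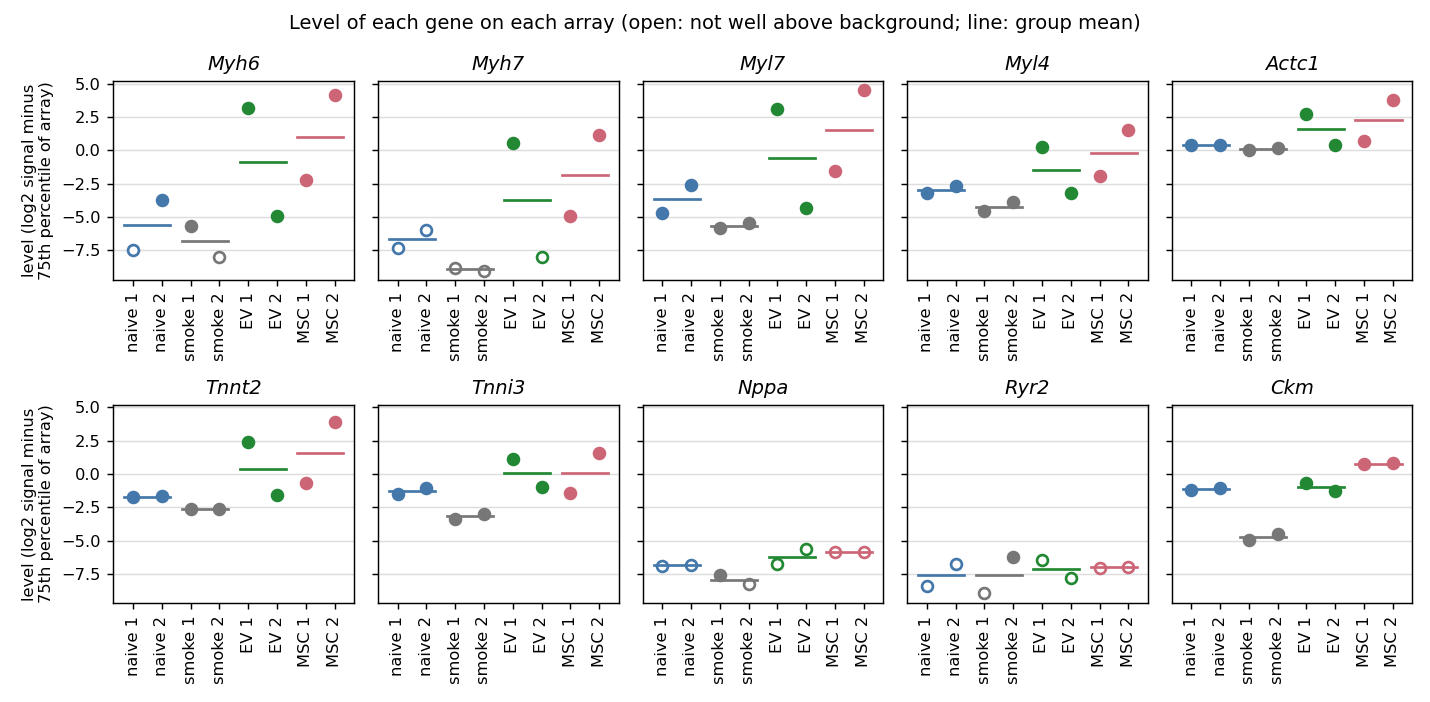
Level of each of the 10 genes (log2 intensity minus the 75th percentile of the array) on the 8 arrays, with filled points well above background, open points not, and lines at group means. Myh6, Myh7, Myl7, Myl4, Actc1, Tnnt2 and Tnni3 are highest on EV 1 and MSC 2, Ckm is lowest on both smoke arrays, and Nppa and Ryr2 (the probe with the higher mean) stay near background.

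The gaps of the 7 genes kept their direction in both pairs however the arrays were scaled. Over 6 ways of background correction and normalization, the EV gap of Myl7 ran from 5.79 to 8.10 and that of Tnni3 from 1.90 to 2.80. In the MSC pair they ran from 5.35 to 6.31 and from 2.36 to 3.25. Myh7 had the widest range, 3.95 to 9.20 in the EV pair and 3.37 to 6.50 in the MSC pair, with the lowest values under normexp. Its bound of 79.2-fold holds on the percentile scale only, since the normexp gap of 3.95 log2 lies under it. Across the 8 genes kept, the median absolute gap was 3.71 in the EV pair and 4.02 in the MSC pair, against 0.50 in the naive pair and 0.40 in the smoke pair. Over all 25097 genes and unnamed probes kept (called features below) it was 0.26, 0.49, 0.42 and 0.31 in the same order. The naive arrays also differed for some of these genes: naive replicate 2 was at least 7.32-fold brighter than naive replicate 1 for Myh6 and 2.15 log2 brighter for Myl7.

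Features at least 4-fold brighter on EV replicate 1 than on EV replicate 2 numbered 89 (0.355% of those kept), and 7 of the 8 genes kept were among them. On MSC replicate 2 against MSC replicate 1 there were 803 (3.2%), again with the same 7. Both conditions held for 32 features (0.128%), 7 of them from the list and 10 others from the 37 kept genes of a wider list of heart muscle genes. These counts describe the arrays by which the genes were chosen and carry no test.

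The 10 other heart muscle genes among the 32 covered the sarcomere, calcium handling and energy supply. Tnnc1, the calcium-binding troponin of heart and slow muscle, had gaps of 4.02 in the EV pair and 5.05 in the MSC pair. Tcap, which caps titin at the Z disc, had gaps of 3.22 and 3.92, and the Z disc gene Csrp3 was at least 39.9-fold and at least 36.2-fold brighter. Of the calcium store genes, Casq2 had gaps of 2.85 and 4.06, Hrc 2.46 and at least 18.7-fold, and Trdn at least 7.50-fold and at least 11.4-fold. Of the energy genes, myoglobin (Mb) had gaps of 3.22 and 3.70, the muscle cytochrome oxidase subunit Cox6a2 4.12 and 4.97, and Pgam2 2.99 and 4.16. The mitochondrial creatine kinase gene Ckmt2 was at least 34.1-fold brighter in the EV pair and 5.26 log2 in the MSC pair.

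**Figure D2:**
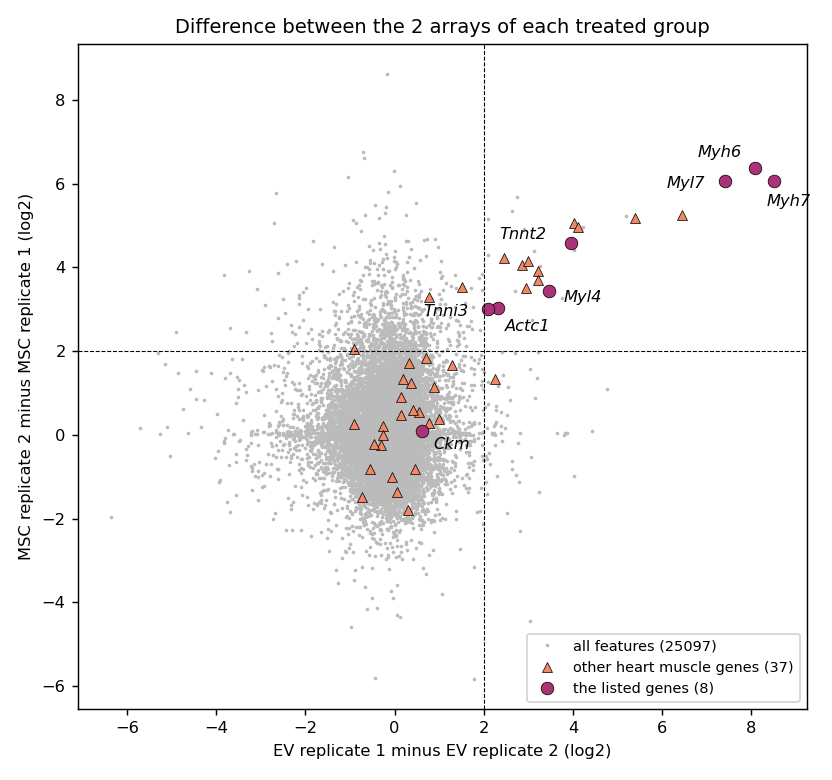
Difference between the arrays of the EV group (x axis, log2) and of the MSC group (y axis, log2) for 25097 features, with dashed lines at 4-fold and without a floor for arrays at background (as for Myh7). The 7 labelled genes other than Ckm lie in the upper right corner with 10 other heart muscle genes, while Ckm lies near 0 on both axes.

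Genes that mark one chamber differed among themselves. Of the atrial genes, Myl7 and Myl4 were bright on the arrays named above, and so was Sln, the atrial inhibitor of the calcium pump, which was not kept by the filter. Sln was at least 10.4-fold brighter on EV replicate 1 than on its mate and at least 11.8-fold on MSC replicate 2, with levels of -2.41 and -1.98 there and -7.98 to -5.86 on the other 6 arrays. Nppa was not, as given above, and Gja5, the gene of a connexin found in atrial muscle and in arterial endothelium, had no such gap. Gja5 lay at 2.75 and 2.61 in naive lung, 1.02 and 1.61 after smoke, 2.23 and 2.28 after EVs, and 3.83 and 2.83 after MSCs.

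Of the ventricular genes, Myh7 was bright on both of these arrays and Hey2, a transcription factor gene, on 1 of them. Hey2 lay at -5.89 and -3.83 after MSCs, at least 3.28-fold brighter on MSC replicate 2, and was not above background on either EV array. Myl2, the ventricular regulatory light chain gene, was not well above background on any array by the brighter of its probes, with levels of -8.21 to -4.93. Its other probe was above background on naive replicate 1 only. Myl3, the essential light chain gene of ventricle and slow muscle, lay at -6.12 and -5.39 after EVs and -4.97 and -6.45 after MSCs. It was lower on EV replicate 1 than on EV replicate 2, and was not above background on either MSC array. The ventricular medians that follow include these values at background and those of Hey2 on the EV arrays. These medians cover only the wider list. They leave out Myh7, Myl7 and Myl4, which belong to the genes followed here and had wide gaps, and Sln, which was not kept. The median gap of the 3 other ventricular genes kept was -0.73 in the EV pair and -0.81 in the MSC pair. For the 6 other atrial and pulmonary vein genes kept it was 0.043 and 0.025. Over all features it was -0.11 and -0.14.

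Markers of other cell types that a piece of lung could hold were read beside these gaps. The summed signal of the 10 genes, relative to the array's 75th percentile, was 35.0 on EV replicate 1, 79.3 on MSC replicate 2 and 1.42 to 5.20 on the other 6 arrays. Smooth muscle genes had a median gap of 0.43 in the EV pair and 0.93 in the MSC pair, with a summed signal of 20.9 and 44.1 on the bright arrays against 15.6 and 19.6 on their mates. Their brightest genes were Myh11, at 2.38 and 2.19 after EVs and 2.98 and 3.98 after MSCs, and Actg2, at 2.42 and 1.75 after EVs and 1.75 and 3.79 after MSCs. Skeletal muscle genes had median gaps of 0.079 and 0.37, with Tnni2 at -2.66 and -2.74 after EVs and -1.95 and -1.17 after MSCs, and Tnnt1 at -2.25 and -2.33 after EVs and -1.64 and -1.27 after MSCs.

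Most of the lung's own markers were dimmer on MSC replicate 2 than on MSC replicate 1. The median gap of lung epithelial genes was -1.09 there and 0.0076 in the EV pair, with the surfactant genes Sftpc at 9.83 and 8.97 and Sftpb at 7.30 and 6.44 on the MSC arrays. Of the 9 epithelial genes, 2 airway genes were instead brighter on MSC replicate 2, named after their values were seen: the club cell gene Scgb1a1, at 5.42 and 7.35, and the ciliated cell gene Foxj1, at 1.82 and 2.80. For lung endothelial genes it was -1.07 and -0.098, with Kdr at 6.42 and 5.42 and Pecam1 at 6.13 and 5.29. Mesothelial genes had median gaps of 0.20 in the EV pair and 0.83 in the MSC pair, where Msln lay at 1.40 and 2.88 and Upk1b at -1.89 and -3.01. Fat genes had 0.097 and 0.092, with Fabp4 at -5.17 and -6.55 after EVs and -5.25 and -4.13 after MSCs. Cidec ran the opposite way, at -5.69 and -4.89 after EVs and -4.66 and -6.23 after MSCs. The fat gene Adipoq, not kept and named after its values were seen, lay at -4.08 and -6.23 after EVs and -6.01 and -4.43 after MSCs. Of the treated arrays, Adipoq and Fabp4 were above background on EV replicate 1 and MSC replicate 2 only. The other fat genes did not share this. Cidec was above it on both EV arrays and MSC replicate 1, and Ucp1 on both EV arrays and neither MSC array. Cidea was above it on EV replicate 1 only and Plin1 on no treated array. Lep was above it on MSC replicate 1 only by its brighter probe and on EV replicate 1 only by the other. Airway cartilage genes had 0.12 and -0.44 (Chad at -2.51 and -0.96, Col2a1 at -2.83 and -3.08 on the MSC arrays). What tissue the pieces held, and its part in the heart muscle levels, was not tested.

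**Figure D3:**
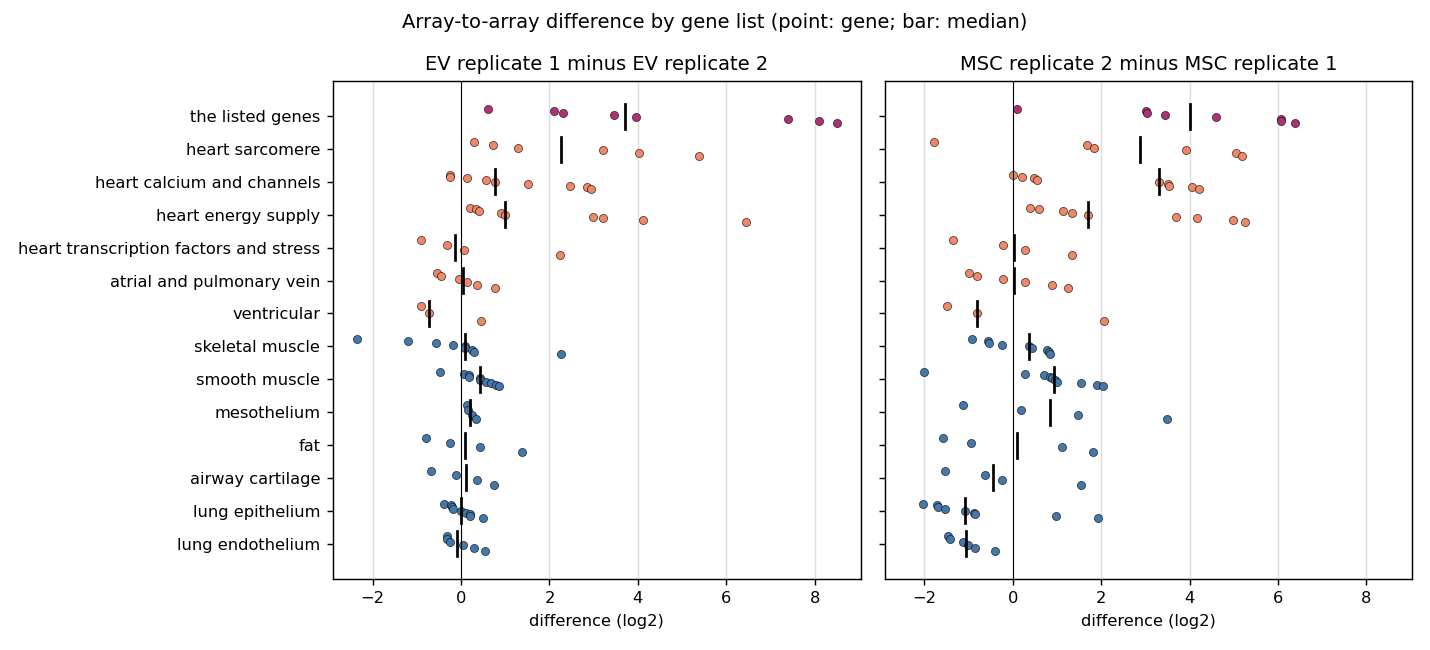
Difference in log2 between the arrays of the EV group (left) and of the MSC group (right) for each kept gene of 14 lists, with a bar at the median of each list. The 8 listed genes have medians of 3.71 and 4.02, smooth muscle genes 0.43 and 0.93, and lung epithelial genes 0.0076 and -1.09.

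The genes whose levels over the 8 arrays ran closest to the mean centred profile of the 8 kept genes were again genes of striated muscle. Among 2677 named features with an SD of at least 1 log2, Pearson's r was 0.998 for Ckmt2, 0.991 for Mb, 0.990 for Tcap, 0.987 for Pgam2, 0.983 for Casq2, 0.964 for Hrc, 0.962 for Cox6a2 and 0.956 for Dhrs7c, a dehydrogenase gene. The profile itself stood at 3.43 on EV replicate 1 and 4.53 on MSC replicate 2 and between -2.70 and 0.44 on the others, so these values rest largely on those arrays. Within the list, the correlation of a gene with the mean of the others was 0.945 to 0.994 for 7 genes and 0.713 for Ckm. All these values share the arrays and their scaling and are given without a test.

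On the percentile scale the group means of the kept genes were lowest after smoke. For Myh7 this has no meaning, since it was not above background on any naive or smoke array. Its measured value still enters the medians and ranges over 8 genes below. In smoke against naive lung, which asks what the smoke did, Ckm averaged -4.73 ± 0.32 (SD, n = 2) against -1.13 ± 0.083 (SD, n = 2), a difference of -3.61 (SE 0.32). Tnni3 differed by -1.92 (SE 0.99), Myl4 by -1.27 (SE 1.30) and Tnnt2 by -0.93 (SE 1.58). Myh6 stood at -1.26 (SE 2.89), a value that turned to 0.61 without naive replicate 2 and came to -3.13 without naive replicate 1, -2.44 without smoke replicate 1 and -0.078 without smoke replicate 2. The median of the 8 genes was -1.59, against -0.62 over all features.

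The direction of smoke against naive depended on the scale. With scaling to the E1A spike-in controls 7 of the 8 differences turned positive, Myh7 at background among them, with a median of 1.37 against 2.34 over all features. Ckm kept its direction there at -0.64. The smoke arrays were several times brighter than the rest before scaling, and whether that reflects RNA or the array was not tested.

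EV against smoke asks what the vesicles did after smoke. The 8 genes stood 1.44 to 5.97 log2 higher after EVs, with a median of 3.54 against 0.55 over all features. For Myh6, Myl7, Myl4, Actc1 and Tnnt2, however, most of the difference came from EV replicate 1. Without EV replicate 1 and MSC replicate 2, a setting chosen after seeing the data, Myh6 came from 5.97 (SE 2.89) to 1.93 (SE 1.64) and Myl7 from 5.08 (SE 2.53) to 1.38 (SE 0.86). Tnnt2 came from 3.05 (SE 1.58) to 1.07 (SE 0.35) and Actc1 from 1.44 (SE 1.01) to 0.28 (SE 0.35). That setting leaves 1 array in each treated group. Within-group spread then comes only from the naive and smoke pairs, so its SEs hold none of the treated groups. Myh7 was not well above background on either smoke array. Set against the floor of those arrays, its mean over both EV arrays was 15.3-fold higher on the percentile scale. This takes EV replicate 2 at its measured value, though Myh7 was not above background there, so it is no strict bound. Tnni3 came from 3.30 (SE 0.99) to 2.25 (SE 0.42) and Ckm from 3.78 (SE 0.32) to 3.48 (SE 0.38). With spike-in scaling Ckm stood at 1.30, and Actc1 turned to -1.05.

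MSC against smoke asks the same of the cells. The 8 genes stood 2.12 to 7.81 higher after MSCs, with a median of 4.87 against 0.74 over all features. Without EV replicate 1 and MSC replicate 2 the median was 3.17: Myh6 came from 7.81 (SE 2.89) to 4.62 (SE 1.64), Myl7 from 7.17 (SE 2.53) to 4.14 (SE 0.86), and Tnnt2 from 4.23 (SE 1.58) to 1.94 (SE 0.35). As above, this setting leaves 1 array in the MSC group, and its SEs hold no spread of that group. Tnni3 came from 3.28 (SE 0.99) to 1.78 (SE 0.42), and with spike-in scaling its difference turned to -0.74 and that of Actc1 to -1.90. On the percentile scale Myh7 was at least 55.8-fold brighter after MSCs than after smoke, a bound that need not hold on another scale. Myh7 passed the filter through the MSC group alone, so its higher level there partly follows from the filter. It enters the range and median over the 8 genes above. Ckm stood at 5.52 (SE 0.32) and at 5.47 (SE 0.38) without those arrays.

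EV against MSC compares the treatments. The differences of the 8 genes ran from -2.10 to 0.018, with a median of -1.50 against -0.28 over all features. SEs were 0.99 to 2.89 for the 7 genes other than Ckm. For 6 of those 7, leaving out EV replicate 2 or MSC replicate 2 turned the sign, as with Myl7, which went from -2.10 to between -5.80 and 1.60 as single arrays were left out. Ckm differed by -1.73 (SE 0.32), between -2.04 and -1.42 with any single array left out, and by -0.19 with spike-in scaling. These comparisons share the smoke arrays with each other, and EV against MSC shares the treated ones.

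**Figure D4:**
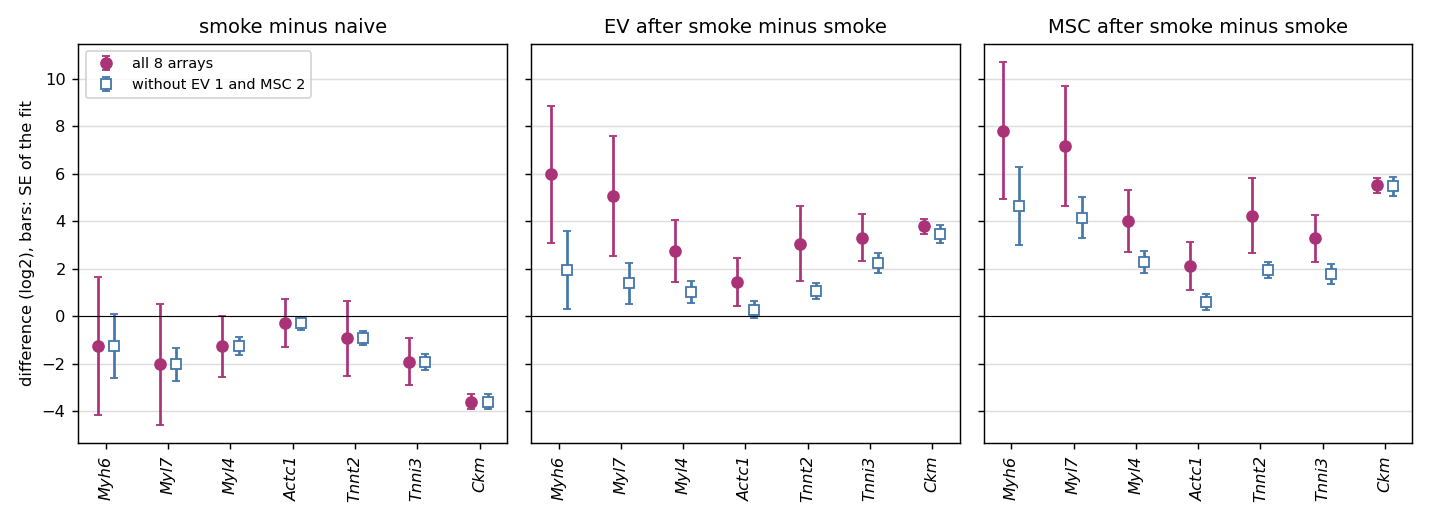
Difference in log2 between groups for 7 of the kept genes, with the standard error of the fit, using all 8 arrays (filled circles) and without EV replicate 1 and MSC replicate 2 (open squares). Ckm keeps nearly the same value with and without those arrays in each of 3 panels, while Myh6 and Myl7 go from 5.97 and 5.08 to 1.93 and 1.38 in EV against smoke. Myh7 is left out, being at background on both smoke arrays and EV replicate 2. The open squares for EV and MSC rest on 1 treated array, so their SEs hold no spread of the treated group.

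The wider list of heart muscle genes held 60 genes outside the 10, of which 53 had a probe and 37 were kept. Of the 16 with a probe that were not kept, 7 were not above background on any array, and Sln and Smpx, a small muscle protein gene, were above it on EV replicate 1 and MSC replicate 2 and on neither of their mates. Others ran the opposite way in the EV pair: the Z disc gene Actn2 was at least 4.05-fold and the transcription factor gene Hand2 at least 2.01-fold brighter on EV replicate 2, and neither was above background on an MSC array. In smoke against naive lung limma called 7 of the 37, 2 higher and 5 lower, at Benjamini-Hochberg adjusted p under 0.05, against 47.5% of all features in either direction, 12.1% higher and 35.4% lower. The lipid transfer gene Stard10 rose by 1.97 (SE 0.39, adjusted p = 0.00692) and the mitochondrial adenine nucleotide carrier gene Slc25a4 by 1.40 (SE 0.44, adjusted p = 0.0336). Nr2f2, a transcription factor of atria and veins, fell by 1.55 (SE 0.38, adjusted p = 0.0135), Gja5 by 1.37 (SE 0.39, adjusted p = 0.0243) and the calcium channel gene Cacna1c by 0.99 (SE 0.30, adjusted p = 0.0290).

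Cpt1b, which encodes the muscle form of carnitine palmitoyltransferase 1, also fell, by 1.25 (SE 0.41, adjusted p = 0.0387), and so did Myl3, by 1.58 (SE 0.52, adjusted p = 0.0390), though Myl3 was above background on 1 array of each group. The other probe of Gja5 ran the opposite way, at -0.57 and -0.29 after smoke against -1.38 and -2.40 in naive lung. The sarcomere list had 0 of 6 called by limma in either direction and 0 at an unadjusted p under 0.05. Without naive replicate 1, naive replicate 2 or smoke replicate 1 the count of 7 came to 4, 1 and 0. Without EV replicate 1 and MSC replicate 2 it was 13, against 46.5% of all features. The split into higher and lower was 2 and 22 under normexp, 3 and 1 under quantile normalization and under cyclic loess, 2 and 2 with the percentile of probes detected on all arrays, and 27 and 0 with spike-in scaling. All features moved too, with a median difference of -1.21 under normexp and 2.34 with spike-in scaling. Apart from the 46.5%, the share of all features called in these settings is not given. The counts therefore do not set heart muscle genes apart.

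In EV against smoke 4 of the 37 were called, 2 higher and 2 lower, against 39.8% of all features, 29.9% higher and 9.97% lower. Cpt1b rose by 1.78 (SE 0.41, adjusted p = 0.0143) and Cacna1c by 1.03 (SE 0.30, adjusted p = 0.0296), while Stard10 fell by 2.10 (SE 0.39, adjusted p = 0.00751) and Slc25a4 by 1.42 (SE 0.44, adjusted p = 0.0370). This comparison shares the smoke arrays with smoke against naive. The 10 other heart muscle genes that were bright on both EV replicate 1 and MSC replicate 2 had adjusted p of 0.0507 to 0.463 here in limma and were not called. They were picked for a wide gap within each treated group, and that gap is the spread in the fit. The lack of a call thus largely follows from how they were picked. The count was 0 without smoke replicate 1, 2 without either EV array, 12 without either MSC array, and 7 without EV replicate 1 and MSC replicate 2, against 26.4% of all features. The split was 27 and 2 under normexp, 1 and 2 under quantile normalization, 1 and 3 under cyclic loess, 1 and 2 with the percentile of probes detected on all arrays, and 0 and 23 with spike-in scaling. Over all features the median difference was 1.00 under normexp and -1.94 with spike-in scaling. Apart from the 26.4%, the share of all features called in these settings is not given, so the counts do not set heart muscle genes apart.

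In MSC against smoke 17 of the 37 rose and 3 fell, against 43.3% and 16.4% of all features, or 59.7% in either direction. Cpt1b rose by 2.34 (SE 0.41, adjusted p = 0.00222), Cacna1c by 1.59 (SE 0.30, adjusted p = 0.00290), Gja5 by 2.01 (SE 0.39, adjusted p = 0.00347) and Myocd, a cofactor of serum response factor in heart and smooth muscle, by 1.54 (SE 0.30, adjusted p = 0.00351). Stard10 fell by 2.17 (SE 0.39, adjusted p = 0.00258) and Slc25a4 by 2.34 (SE 0.44, adjusted p = 0.00299). The other probe of Gja5 again ran the opposite way, at -2.13 and -3.54 after MSCs.

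By role, named after their values were seen, 2 of 6 sarcomere genes rose (Ldb3 and Tcap), 4 of 9 calcium and channel genes (Casq2, Hrc, Jph2 and Cacna1c) and 5 of 9 energy genes (Mb, Ckmt2, Cox8b, Pgam2 and Cpt1b). Ckmt2 was not above background on either smoke array and passed the filter through the MSC group alone. Its call as higher after MSCs therefore partly follows from the filter. Of 6 atrial and pulmonary vein genes Gja5, Kcnj5 and Nr2f2 rose and Stard10 fell, and of 3 ventricular genes Myl3 and Hey2 rose, Myl3 without being above background on either MSC array. Popdc2 fell among the 4 transcription factor and stress genes, while its other probe lay at -3.53 and -3.94 after smoke and -2.63 and -3.82 after MSCs. These shares are read against the 43.3% of all features that were higher and the 16.4% that were lower, and a count this small near that background says nothing particular of a role. The count of 20 came to 6 without smoke replicate 1, 9 without smoke replicate 2 and 10 without MSC replicate 2, and to 16 without EV replicate 1 and MSC replicate 2, against 53.5% of all features. The split was 5 and 3 under quantile normalization, 5 and 4 under cyclic loess, 8 and 3 with the percentile of probes detected on all arrays, and 0 and 27 with spike-in scaling. Over all features the median difference was 0.020 under quantile normalization and -3.28 with spike-in scaling. Apart from the 53.5%, the share of all features called in these settings is not given, so the counts do not set heart muscle genes apart.

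In EV against MSC limma called 0 of the 37 at adjusted p under 0.05, with 4 at an unadjusted p under 0.05, against 7.14% of all features called, 1.8% higher and 5.34% lower. The count was 1 without MSC replicate 2. Under normexp 2 were higher and 9 lower, and with spike-in scaling 9 were higher and 0 lower. The median difference over all features was -0.68 under normexp and 1.26 with spike-in scaling. The share of all features called in these settings is not given, so the counts do not set heart muscle genes apart. Without EV replicate 1 and MSC replicate 2 the count was 0 of the 37, and 0 of all features.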

How the data were processed

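Each file is the scanner output of 1 array of male rat lung, and per the file headers the authors made it with version 10.7.3.1 of Agilent's Feature Extraction, from array design 074036. The deposited intensity is the processed signal, background-subtracted and spatially detrended and not normalized between arrays, beside median spot and background intensities. The other deposited flags (well above background, saturated, outlier) are 0 or 1, and 0 spots were saturated. What the authors did next is not given in the sources.

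Of 62976 spots 4259 were controls. After outlier spots were removed, those of 1 probe were averaged, and log2 intensity minus each array's 75th percentile taken as the level. Of 45598 probes 29612 were kept, each well above background on the 2 arrays of some group. Accessions without versions gave 21215 probes a symbol through a RefSeq gene table (GRCr8, names only). A gene was its kept probe with the highest mean signal, which left 25097 features. Promoters came from RefSeq, assembly GRCr8.

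Groups were fitted with limma 3.58.1 in R 4.3.3 as 4 means over 8 arrays, with 4 residual degrees of freedom and Benjamini-Hochberg adjustment at 0.05 over all features. The code was tested on simulated data. Figures used Python 3.11.15 and matplotlib 3.10.9. A bound ("at least") sets the bright array or group against the dim side. The dim side takes its own signal or, if higher, the lowest value any probe well above background had on that array. Bounds are on the percentile scale and need not hold on another. The number of arrays, 2 in each group, and low signal limit the precision.

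The 10 genes and all lists were chosen with earlier results of these data known. Named were the 10 genes, the called heart muscle genes whose groups did not overlap (at most 6 per comparison by smallest p), Myl2, Myl3, Sln and Gja5, the 8 features most correlated with the mean profile, and the 2 brightest genes of each list of other cell types. Other names were chosen after their values were seen. The cell type lists were skeletal muscle, smooth muscle, mesothelium, fat, airway cartilage, lung epithelium and lung endothelium. Alternatives were normexp (offset 50, on median spot intensities), quantile normalization, cyclic loess, scaling to 7 of 10 E1A spike-in probes, a percentile over probes detected on all arrays, other filters, averaging the probes of a gene, fitting only the compared groups, a trended robust prior, array weights, a replicate block and each array left out.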

Additional observations from a re-analysis of the deposited data

How the results depend on the processing

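The number of other heart muscle genes called depended on the processing. So did the array as a whole: in smoke against naive the median over all features was -0.62 on the percentile scale, -1.21 under normexp and 2.34 with spike-in scaling. The share of all features called is not given for most of these settings, so the counts say nothing particular of heart muscle genes. In smoke against naive it went from 7 to 24 under normexp, 4 under quantile normalization, 4 under cyclic loess, 27 with spike-in scaling, 4 with the percentile of probes detected on all arrays, 13 with only the compared groups and 13 without EV replicate 1 and MSC replicate 2. In EV against smoke it went from 4 to 29 under normexp, 23 with spike-in scaling, 2 without a filter on dim probes, 12 with only the compared groups, 14 with array weights and 7 without EV replicate 1 and MSC replicate 2. In MSC against smoke it went from 20 to 31 under normexp, 8 under quantile normalization, 9 under cyclic loess, 11 with the percentile of probes detected on all arrays and 12 with array weights. In EV against MSC it went from 0 to 11 under normexp and 9 with spike-in scaling. With single arrays left out, taking a lone array to vary as the other groups do, the counts ran from 0 to 7, 0 to 12, 6 to 21 and 0 to 1. The causes were not tested. Deviations by replicate number correlated weakly between groups (-0.15 to 0.14), which does not exclude a pairing or an effect of the slide row. With a replicate block the counts were 6, 4, 18 and 0. Of the alternative values of the 8 genes, 432 moved by less than the spread within groups, 103 moved by more and 1 was labelled reversed. That spread holds the wide gaps of the treated pairs, so large shifts and changes of sign can fall within it. With spike-in scaling 7, 1, 2 and 3 of the 8 differences turned sign in smoke against naive, EV against smoke, MSC against smoke and EV against MSC, Tnni3 in MSC against smoke to -0.74 among them. A filter on all 8 arrays left Myh6 and Myh7 without a value. Low signal limits Nppa, Ryr2, Myl2 and most levels of Myh7.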

Other observations

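Of the 32 features at least 4-fold brighter on both EV replicate 1 and MSC replicate 2 than on their mates, 9 with a symbol belonged to none of the heart muscle lists. They are named here after their values were seen, with no test. Bpifa1, an airway antimicrobial protein gene, lay at -3.11 and -0.87 in naive lung, -2.02 and -1.55 after smoke, 1.67 and -2.55 after EVs, and -1.83 and 3.15 after MSCs. Scgb3a1, an airway secretoglobin gene, lay at -2.78 and -0.32, -1.30 and -2.16, 1.71 and -1.19, and -0.45 and 4.47 in the same order. Clca1, a goblet cell product gene, was at least 6.67-fold and at least 20.6-fold brighter, and Gp2, a membrane glycoprotein gene, had gaps of 2.10 and 5.16. Glycam1, the gene of an L-selectin ligand of lymph node vessels, had gaps of 2.63 and 5.34, and Hamp, the hepcidin gene, 3.27 and 4.04. The perinatal muscle myosin gene Myh8 was at least 8.68-fold and at least 15.0-fold brighter. The growth factor gene Gdf10 was at least 3.43-fold and at least 8.69-fold brighter, and Dhrs7c at least 8.99-fold and by 3.27 log2. On naive replicate 2 Hamp stood at 0.22, above its level of -6.28 on naive replicate 1, and Csrp3 of the heart list at -1.45 against -6.74.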
